A study of Sus scrofa with 18 samples.

Results

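The genes described here act in the piRNA pathway, and they were followed in 18 RNA libraries of porcine parthenogenetic embryos. They were chosen by name: PIWIL1, PIWIL2, PIWIL3, PIWIL4, DDX4, HENMT1, MAEL, MOV10L1, TDRKH and PLD6. Of these 10 names, 9 were found among the 20983 genes of the table, and MOV10L1 was not analysed here. HENMT1 had a further reason for its place, since it was already known to be among the highest nuclear genes of these 4-cell embryos. Its level at the 4-cell stage is therefore given as a description, and no test of HENMT1 that involves a step to or from the 4-cell stage is reported.

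The embryos came from oocytes of premature gilts collected at a slaughterhouse. The oocytes were matured in FLI, a defined medium on a TCM 199 base with FGF2, LIF, IGF1 and EGF, or in DMEM, the control medium, which held EGF, IGF1 and FGF but no LIF. Both media also contained PMSG and hCG, and all oocytes were activated with ionomycin and 6-DMAP, so the embryos of every group carried no paternal genome. There were 3 libraries in each of 6 groups, namely 2-cell FLI, 2-cell DMEM, 4-cell FLI, 4-cell DMEM, 8-cell FLI and 8-cell DMEM, and each library was made from a pool of embryos. Nothing in the labels says that the pools came from separate rounds of oocyte collection, so p-values measure the spread between these pools only.

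piRNAs are small RNAs that guide PIWI proteins to transcripts of mobile elements, mainly in germ cells. Long precursor RNAs are cut at the surface of mitochondria, loaded into PIWI proteins, trimmed, and closed by a terminal methyl group. In the mouse the pathway is best known from the testis, and female mice lacking it are largely fertile, whereas oocytes of golden hamsters depend on it. PIWIL3, which mice lack, is a PIWI gene of the oocyte in several other mammals.

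Total counts per library ranged from 1737985 to 6781185, so that a gene without a count could have had up to 0.442 to 1.73 CPM for counting error alone, taking 3 counts as the limit. CPM are counts scaled to the library total, and for the levels given below that total was adjusted by TMM, a scaling that balances libraries on most of their genes. Replicates of the 2-cell and 4-cell groups correlated at 0.960 to 0.989 across genes, but those of the 8-cell FLI group at 0.815 to 0.933 and those of the 8-cell DMEM group at 0.90 to 0.963. The library labelled 8-cell FLI 3 stood apart with 21.4% of its mapped reads, a number inferred from RPKM, in the counts, against 68.7 to 73.0% in the 2-cell libraries, 62.8 to 69.1% in the 4-cell libraries and 44.6 to 63.1% in the other 8-cell libraries. Mitochondrial genes took 2.24 to 3.44% of the counts at the 2-cell stage, 5.30 to 7.96% at the 4-cell stage and 4.74 to 14.6% at the 8-cell stage. Both measures thus moved with stage. The numbers of members called between stages were the same when mitochondrial genes were left out, and the part of the counted share in the stage changes was not tested. Of 10 oocyte and maternal marker genes, among them GDF9 and ZP3, BMP15 was the most abundant in every group. ZP4, also in the list, averaged 251 CPM in 2-cell FLI and 249 CPM in 4-cell FLI embryos. In DMEM it averaged 153 CPM in 2-cell and 110 CPM in 4-cell embryos. The summed level of all 10 was 5318 to 5950 CPM in the 6 libraries of the 2-cell stage and 1172 to 3408 CPM in the 6 of the 4-cell stage. At the 8-cell stage 8-cell FLI 2 had 3778 CPM and 8-cell DMEM 1 had 2256 CPM, against 323 to 1366 CPM in the other 4 libraries. Values without 8-cell FLI 2, or without 8-cell FLI 2, 8-cell FLI 3 and 8-cell DMEM 1 (the 3 libraries that stand apart), therefore stand beside several of the results at the 8-cell stage. Leaving out these 3 leaves 8-cell FLI 1 alone in its group, and 8-cell DMEM 2 and 8-cell DMEM 3 in theirs. In 8-cell FLI such values rest on 1 library, which gives no spread of its own. Genes of cumulus and granulosa cells, the somatic cells around the oocyte, summed to 1.34 to 4.87 CPM at the 2-cell and 15.1 to 32.1 CPM at the later stages, those of blood and other somatic cells to 3.71 to 8.65 and 18.7 to 67.5 CPM, and those of male germ cells to 52.4 to 73.7 and 138 to 315 CPM, most of it SYCP3. The sums thus also differed between stages, largely through AREG and STAR, through VIM and CD74, and through SYCP3. Some listed genes, such as INHBA and BOLL, were lower in 4-cell than in 2-cell FLI embryos. The part of these lists in the results was not tested.

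The PIWI genes encode the proteins that bind piRNAs, and transcripts of PIWIL3 were the most abundant of the family per length (TPM) in every group. PIWIL3 (ENSSSCG00000009950, chromosome 14, 42835302 to 42869566, minus strand, build Sscrofa11.1) had 524, 462 and 470 CPM in 2-cell FLI embryos and 518, 589 and 652 CPM in 2-cell DMEM embryos. At the 4-cell stage it had 104, 101 and 103 CPM in FLI and 86.3, 129 and 157 CPM in DMEM embryos, so that every 4-cell library lay below every 2-cell library. The log2 fold change from the 2-cell stage was -2.24 in FLI (SE 0.39, edgeR quasi-likelihood test, Benjamini-Hochberg adjusted p = 7.7e-05) and -2.24 in DMEM (SE 0.39, adjusted p = 7.49e-05), and PIWIL3 thus fell in both media. At the 8-cell stage the libraries spread widely, with 114, 231 and 56.4 CPM in FLI and 145, 96.4 and 56.4 CPM in DMEM. The highest of these values belonged to the same libraries as the highest sums of maternal markers, 8-cell FLI 2 and 8-cell DMEM 1. The part of the remaining maternal RNA in that spread was not tested.

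PIWIL1 (ENSSSCG00000009749, chromosome 14, 24729113 to 24760320, minus strand), whose mouse counterpart MIWI acts late in spermatogenesis, followed the same course at a lower level. It had 188, 177 and 174 CPM in 2-cell FLI embryos and 200, 217 and 198 CPM in 2-cell DMEM embryos. In the 4-cell stage the values were 41.9, 38.6 and 41.1 CPM in FLI and 36.8, 48.6 and 51.0 CPM in DMEM, all under those of the 2-cell stage. The log2 fold change from the 2-cell stage was -2.15 in FLI (SE 0.46, adjusted p = 0.000597) and -2.17 in DMEM (SE 0.46, adjusted p = 0.000516). The 8-cell libraries again ranged widely, from 21.0 to 122 CPM in FLI and from 17.1 to 70.1 CPM in DMEM.

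PIWIL2 (ENSSSCG00000030228, chromosome 14, 6560565 to 6632523, plus strand), whose mouse counterpart MILI takes part in the amplification of piRNAs, moved the other way. It had 18.6, 13.8 and 11.1 CPM in 2-cell FLI embryos and 13.4, 9.22 and 9.27 CPM in 2-cell DMEM embryos. In 4-cell embryos it had 35.4, 55.0 and 41.9 CPM with FLI and 50.9, 42.5 and 44.4 CPM with DMEM, without overlap with the 2-cell libraries. PIWIL2 rose by 1.61 on the log2 scale in FLI (SE 0.28, adjusted p = 7.89e-05) and by 2.11 in DMEM (SE 0.28, adjusted p = 4.39e-06).

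PIWIL4 (ENSSSCG00000014959, chromosome 9, 26703340 to 26751854, plus strand), known in the mouse as MIWI2, a nuclear PIWI protein of fetal male germ cells, was at the edge of detection. Its only counts were 4 in 8-cell FLI 3 and 1 in 8-cell DMEM 2, and the remaining 16 libraries had a count of 0. It did not pass the filter on low counts, no fold is given for it, and the members tested below are the other 8 genes.

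**Figure D1:**
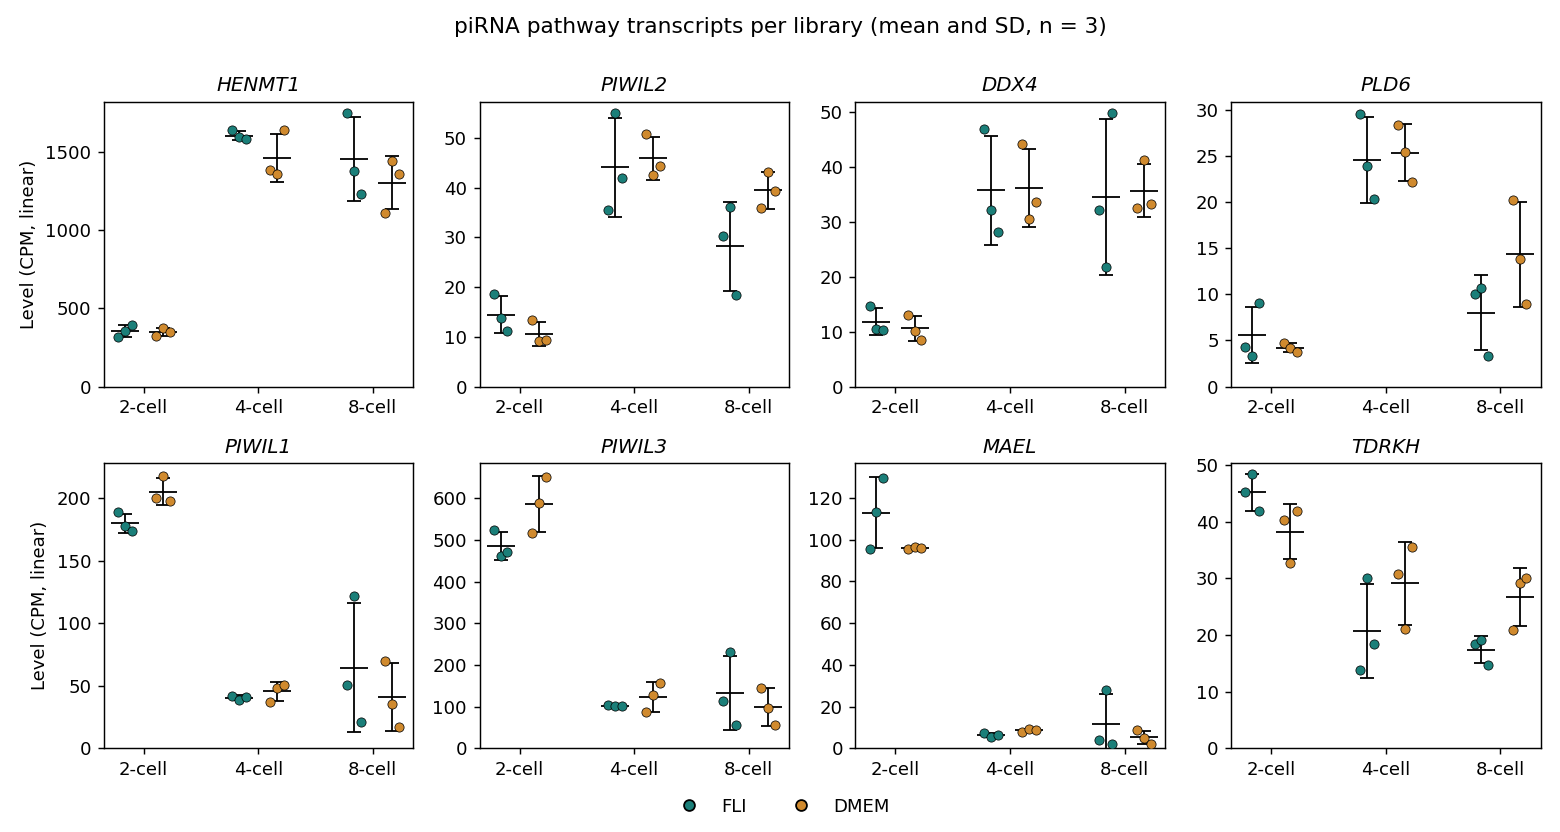
Level of each gene in every library, in CPM after TMM scaling, by stage and medium (FLI left of DMEM), with points for libraries and a bar for the mean with its SD (n = 3), which is cut at 0 for MAEL in 8-cell FLI embryos. HENMT1, PIWIL2, DDX4 and PLD6 lay higher at the 4-cell than at the 2-cell stage, while PIWIL1, PIWIL3 and MAEL lay lower, and for PIWIL1 and PIWIL3 the 8-cell FLI libraries were the most spread.

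HENMT1 (ENSSSCG00000006846, chromosome 4, 111364966 to 111382572, plus strand) is the methyltransferase that adds the terminal methyl group to piRNAs. Its transcript was the most abundant of the members per length in all 18 libraries. It had 318, 358 and 394 CPM in 2-cell FLI embryos and 326, 374 and 347 CPM in 2-cell DMEM embryos. At the 4-cell stage it had 1641, 1595 and 1582 CPM in FLI and 1383, 1361 and 1641 CPM in DMEM embryos, and at the 8-cell stage 1751, 1377 and 1231 CPM in FLI and 1113, 1440 and 1360 CPM in DMEM embryos. The 4-cell and 8-cell libraries overlapped in both media, and all lay above the 2-cell libraries. As a description, the 4-cell level was 4.51 times the 2-cell level in FLI and 4.19 times in DMEM. The 8-cell stage was also higher than the 2-cell stage, by 2.03 on the log2 scale in FLI (SE 0.18, adjusted p = 3.65e-08) and by 1.90 in DMEM (SE 0.18, adjusted p = 6.24e-08). The 8-cell values were not used to choose the gene. They lay close to the 4-cell values that were, so this comparison is not independent of the choice. HENMT1 was thus called higher in 8-cell embryos of both media, and it remained so in all 18 alternatives run for each.

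On the scale of TPM, which divides by transcript length and allows a comparison between genes, HENMT1 stood far above the other members. It ranked 85 to 126 among the 20970 nuclear genes in the 2-cell FLI libraries and 103 to 122 in 2-cell DMEM. Its rank was 6 to 9 in 4-cell FLI and 9 to 19 in 4-cell DMEM, and it was 6 to 8 in 8-cell FLI and 17 to 19 in 8-cell DMEM. The high rank of the 4-cell libraries is what chose the gene. That of the 8-cell libraries was not used, but it lay close to the 4-cell rank and is not independent of the choice.

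PLD6 (ENSSSCG00000039878, chromosome 12, 61057733 to 61060696, plus strand) encodes the mitochondrial nuclease thought to cut piRNA precursors. It had 4.30, 3.36 and 9.08 CPM in 2-cell FLI embryos and 4.76, 4.22 and 3.71 CPM in 2-cell DMEM embryos. In the 4-cell embryos it had 29.5, 23.9 and 20.3 CPM with FLI and 28.4, 25.4 and 22.2 CPM with DMEM. It rose by 2.13 on the log2 scale in FLI (SE 0.42, adjusted p = 0.000283) and by 2.58 in DMEM (SE 0.43, adjusted p = 4.83e-05), the largest increase among the members tested at this step. At the 8-cell stage it had 10.1, 10.6 and 3.32 CPM in FLI and 20.3, 13.8 and 8.93 CPM in DMEM, in both media below every 4-cell library. The 4-cell libraries thus lay above those of both other stages in both media. How many of all genes share this pattern was not counted, and the fall to the 8-cell stage passed the test in FLI only, as given below.

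TDRKH (ENSSSCG00000027770, chromosome 4, 97415914 to 97438691, plus strand) encodes a Tudor protein that holds PIWI proteins at mitochondria while their piRNAs are trimmed. It had 45.3, 48.4 and 41.8 CPM in 2-cell FLI embryos and 40.2, 32.6 and 41.8 CPM in 2-cell DMEM embryos. At the 4-cell stage it had 13.8, 30.0 and 18.4 CPM in FLI, all below the 2-cell FLI values, and 30.7, 21.1 and 35.4 CPM in DMEM, which overlapped the 2-cell DMEM values. It fell by 1.13 on the log2 scale in FLI (SE 0.28, adjusted p = 0.00197), and in DMEM the value was -0.39 (SE 0.27, adjusted p = 0.214). This does not show a difference between media, since the test of the difference between the steps gave -0.73 on the log2 scale (95% interval -1.55 to 0.08, unadjusted p = 0.0755, adjusted p = 1.0).

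MAEL (ENSSSCG00000006316, chromosome 4, 83990273 to 84040465, minus strand) encodes Maelstrom, a protein of the germ granule that is needed for the silencing of mobile elements in mouse male germ cells. It had 95.7, 113 and 130 CPM in 2-cell FLI embryos and 95.6, 96.6 and 96.2 CPM in 2-cell DMEM embryos. In 4-cell embryos it had 7.28, 5.62 and 6.22 CPM with FLI and 7.73, 9.42 and 8.74 CPM with DMEM. The fall of 4.14 on the log2 scale in FLI (SE 0.60, adjusted p = 1.05e-05) and of 3.47 in DMEM (SE 0.58, adjusted p = 4.85e-05) was the largest among the members. At the 8-cell stage MAEL had 4.17, 28.2 and 2.21 CPM in FLI and 8.68, 4.82 and 2.14 CPM in DMEM, and the high value again belonged to 8-cell FLI 2.

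DDX4 (ENSSSCG00000016913, chromosome 16, 34858368 to 34983699, plus strand), or VASA, is the RNA helicase used as a marker of germ cells. It had 14.6, 10.4 and 10.3 CPM in 2-cell FLI embryos and 13, 10.2 and 8.56 CPM in 2-cell DMEM embryos. At the 4-cell stage it had 46.9, 32.1 and 28.1 CPM in FLI and 44.1, 30.5 and 33.5 CPM in DMEM, which did not overlap the 2-cell values. DDX4 rose by 1.61 on the log2 scale in FLI (SE 0.31, adjusted p = 0.00023) and by 1.77 in DMEM (SE 0.31, adjusted p = 8.65e-05). Its start overlaps the start of SLC38A9 on the opposite strand (34768987 to 34858747), a gene with 21.3 CPM on average, and since it is not stated whether counting used the strand, reads of that short overlap cannot be told apart.

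DDX4, PIWIL2 and PLD6 thus rose in 4-cell embryos of both media, and PIWIL1, PIWIL3 and MAEL fell in both. Of the 7 members tested at this step, 3 were higher and 4 lower in 4-cell than in 2-cell FLI embryos, where 61.9% of the 13187 genes tested passed, 34.6% higher and 27.2% lower. In DMEM 3 were higher and 3 lower, where 63.6% of all genes passed, 35.2% higher and 28.4% lower. A change at this step was thus common to most genes. HENMT1 was left out of the next comparison, since its 4-cell level chose it. None of the 7 members overlapped between these stages in FLI, and in DMEM only TDRKH did. Of all genes 74.7% in FLI and 74.4% in DMEM had no overlap. The median log2 fold change of the 7 was -1.13 in FLI and -0.39 in DMEM, beside 0.18 and 0.16 over all genes. Each of these calls held in all 18 alternatives, also when the 3 libraries that stand apart were left out of the fit. CPM give each transcript as a share of the library, so loss of a transcript cannot be told apart from a gain of others, nor fewer cells of a type from less RNA per cell, and total RNA per embryo was not measured.

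**Figure D2:**
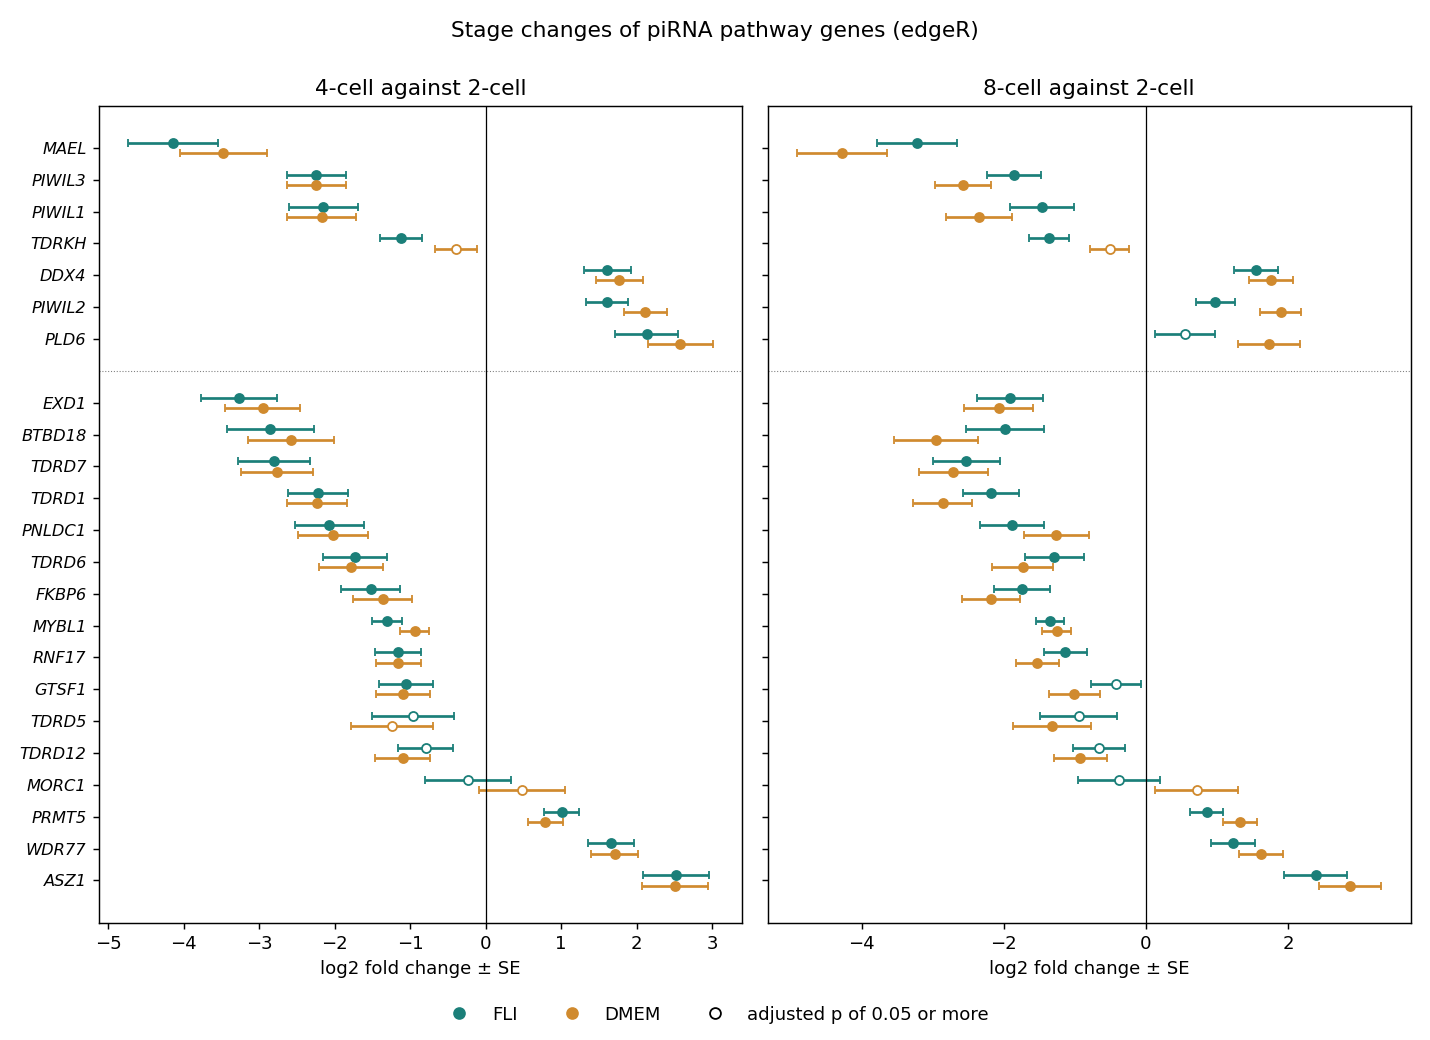
Log2 fold change (TMM, edgeR) of 4-cell against 2-cell embryos and of 8-cell against 2-cell embryos in FLI and in DMEM, with bars of 1 SE, for the members (above the dotted line) and the other genes of the pathway (below it). Open points had an adjusted p of 0.05 or more, and HENMT1 is not drawn. MAEL, PIWIL1 and PIWIL3 lie below 0 and DDX4 and PIWIL2 above 0 in all 4 comparisons.

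In 8-cell embryos MAEL, PIWIL1 and PIWIL3 were again lower than at the 2-cell stage and DDX4 and PIWIL2 higher in both media, whereas PLD6 passed in DMEM only and TDRKH in FLI only. Whether these last 2 differed between media at this step was not tested. Against 2-cell FLI embryos, 8-cell FLI embryos had 3 of the 8 members higher (HENMT1, DDX4 and PIWIL2) and 4 lower (MAEL, PIWIL1, PIWIL3 and TDRKH), where 58.6% of all genes passed, 34.6% higher and 24.0% lower. Against 2-cell DMEM embryos, 8-cell DMEM embryos had 4 higher (HENMT1, DDX4, PIWIL2 and PLD6) and 3 lower (MAEL, PIWIL1 and PIWIL3), where 65.0% of all genes passed, 35.9% higher and 29.0% lower. The stages did not overlap for 6 of 8 members in FLI and for 8 of 8 in DMEM, beside 60.9% and 71.9% of all genes. When the 3 libraries that stand apart were left out, the same numbers were called in each direction in DMEM. In FLI this left only the library 8-cell FLI 1 in its group. Each member called in FLI kept its direction there, and no calls are given.

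MAEL was again the member with the largest fall, at -3.22 on the log2 scale in 8-cell against 2-cell FLI embryos (SE 0.56, adjusted p = 0.000114) and at -4.28 in DMEM (SE 0.63, adjusted p = 1.49e-05). Without 8-cell FLI 2 the value in FLI was -5.07. For PIWIL3 the log2 fold change was -1.85 in FLI (SE 0.38, adjusted p = 0.000557) and -2.57 in DMEM (SE 0.39, adjusted p = 2.41e-05), and without 8-cell FLI 2 it was -2.50 in FLI. The value for PIWIL1 was -1.46 in FLI (SE 0.45, adjusted p = 0.00997) and -2.35 in DMEM (SE 0.47, adjusted p = 0.000335), and -2.30 in FLI without 8-cell FLI 2. The call for PIWIL1 in FLI was lost when only the groups compared entered the fit (adjusted p = 0.0536).

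Among the genes that were higher, DDX4 rose by 1.55 on the log2 scale in 8-cell FLI (SE 0.31, adjusted p = 0.000446) and by 1.76 in 8-cell DMEM embryos (SE 0.31, adjusted p = 0.000115), and without 8-cell FLI 2 by 1.80 in FLI. PIWIL2 rose by 0.98 in FLI (SE 0.28, adjusted p = 0.00644) and by 1.90 in DMEM (SE 0.29, adjusted p = 1.87e-05). In FLI its 8-cell values of 30.2, 36.0 and 18.4 CPM overlapped those of the 2-cell stage, and the call was lost when only the groups compared were fitted (adjusted p = 0.0705, over all alternatives 0.0004 to 0.0705). PLD6 was higher in 8-cell DMEM embryos by 1.74 (SE 0.43, adjusted p = 0.00215), and in FLI the value was 0.55 (SE 0.43, adjusted p = 0.272). Without 8-cell FLI 2 the FLI value was 0.31, which did not pass. It was 0.85 without the 3 libraries that stand apart, with 8-cell FLI 1 alone in its group. TDRKH fell by 1.37 on this scale in 8-cell FLI embryos (SE 0.28, adjusted p = 0.000544), and in DMEM the value was -0.51 (SE 0.28, adjusted p = 0.114).

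From the 4-cell to the 8-cell stage most members stayed within the spread of the libraries. PLD6 passed in FLI, where it fell by 1.58 on the log2 scale (SE 0.41, adjusted p = 0.0443). It was 1 of 7 members tested, beside 3.05% of all genes, 0.804% higher and 2.24% lower, and this call was kept in 6 of 18 alternatives. Its value in DMEM was -0.84 (95% interval -1.70 to 0.01, unadjusted p = 0.0524, adjusted p = 0.352). Its libraries did not overlap between these stages in either medium, as was so, with the 8-cell stage lower, for 12.6% of all genes in FLI and 13.6% in DMEM. No member passed in DMEM, where edgeR called 0.0% of all genes and 14.5% had an unadjusted p under 0.05, while DESeq2 called 444 genes and none of the members. With the 3 libraries that stand apart left out, 4 members were lower in 8-cell than in 4-cell DMEM embryos, namely MAEL, PIWIL1, PIWIL3 and PLD6 (log2 fold changes of -1.21, -0.74, -0.68 and -1.13). In FLI the direction of MAEL, PIWIL1 and PIWIL3 at this step depended on 8-cell FLI 2, with log2 fold changes of 0.91, 0.68 and 0.39 with it and -0.94, -0.15 and -0.26 without it. None of these values passed the test. With all 3 libraries that stand apart left out, and 8-cell FLI 1 alone in its group, the log2 fold changes were -0.61, 0.33 and 0.16.

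The makeup of the pathway's transcripts was not the same before and after the 4-cell stage was reached. These shares hold the levels that chose HENMT1 and are a description. HENMT1 made up 50.3 ± 2.35% of the summed TPM of the 9 genes in 2-cell FLI and 48.6 ± 1.4% in 2-cell DMEM embryos (SD, n = 3). The share was 92.5 ± 0.478% in 4-cell FLI and 90.9 ± 0.535% in 4-cell DMEM, and 92.7 ± 3.97% in 8-cell FLI and 92.1 ± 3.26% in 8-cell DMEM. The 4 PIWI genes together held 30.8 ± 3.73% in 2-cell FLI and 35.6 ± 1.41% in 2-cell DMEM, 3.34 ± 0.151% in 4-cell FLI and 4.14 ± 0.556% in 4-cell DMEM, and 4.55 ± 3.0% in 8-cell FLI and 4.06 ± 2.03% in 8-cell DMEM. By library the PIWI share was 3.32, 7.98 and 2.36% in 8-cell FLI, where the high value was that of 8-cell FLI 2 and the other libraries did not lie above the 4-cell FLI range of 3.17 to 3.46%, and 6.32, 3.5 and 2.37% in 8-cell DMEM, where the high value was that of 8-cell DMEM 1. The share of HENMT1 was likewise lowest in 8-cell FLI 2 (88.2%) and 8-cell DMEM 1 (88.5%), against 93.0 to 95.5% in the other 8-cell libraries. The sum itself was 1707 ± 98.7 TPM in 2-cell FLI, 3210 ± 207 TPM in 4-cell FLI and 3086 ± 330 TPM in 8-cell FLI embryos, so the share of HENMT1 moved with both its own level and that of the PIWI genes.

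**Figure D3:**
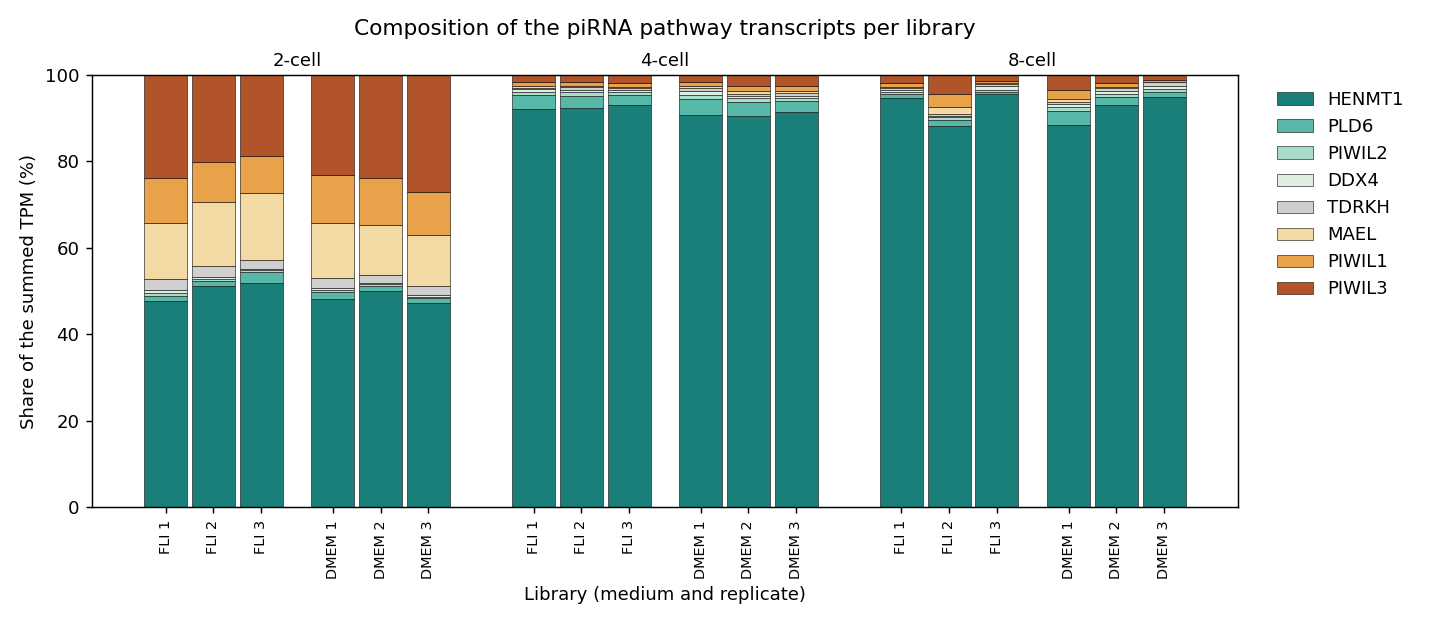
Share of each gene in the summed TPM of the members, in percent, for each of the 18 libraries in order of stage with FLI left of DMEM; PIWIL4 is too low to be drawn. HENMT1 takes 47.3 to 52.0% in 2-cell libraries and 88.2 to 95.5% in 4-cell and 8-cell libraries.

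The PIWI family itself changed in makeup. PIWIL3 held 67.8 ± 0.637% of the family's TPM in 2-cell FLI and 69.3 ± 2.83% in 2-cell DMEM embryos, and 53.7 ± 2.20% in 4-cell FLI and 55.6 ± 6.04% in 4-cell DMEM. PIWIL2 held 1.79 ± 0.364% in 2-cell FLI and 1.14 ± 0.353% in 2-cell DMEM, and 20.5 ± 4.02% in 4-cell FLI and 19.3 ± 5.64% in 4-cell DMEM. The share of PIWIL1 was 30.5 ± 0.749% in 2-cell FLI and 29.5 ± 2.58% in 2-cell DMEM, against 25.8 ± 1.82% in 4-cell FLI and 25.1 ± 1.09% in 4-cell DMEM. These shares rest on few transcripts after the 2-cell stage, when the 4 genes summed to 107 ± 4.85 TPM in 4-cell FLI and 116 ± 23.0 TPM in 4-cell DMEM embryos.

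The order of the genes by TPM differed between 4-cell and 2-cell embryos. In 2-cell FLI embryos HENMT1 (860 ± 87.6 TPM) was followed by PIWIL3 (355 ± 24.0), MAEL (247 ± 35.7), PIWIL1 (159 ± 7.43), TDRKH (41.4 ± 3.62), PLD6 (27.0 ± 14.5), PIWIL2 (9.47 ± 2.51) and DDX4 (7.76 ± 1.61). The ranges of TDRKH and PLD6, and of PIWIL2 and DDX4, overlapped here, although PIWIL2 lay above DDX4 within each library. In 4-cell FLI embryos HENMT1 (2968 ± 177 TPM) was followed by PLD6 (91.7 ± 21.1), PIWIL3 (57.4 ± 2.65), PIWIL1 (27.5 ± 1.75), PIWIL2 (22 ± 4.96), DDX4 (18.1 ± 5.72), TDRKH (14.5 ± 5.88) and MAEL (10.7 ± 1.72). From PIWIL1 downwards each neighbour in that order overlapped the next. In 8-cell FLI embryos HENMT1 had 2857 ± 269 TPM, and below it the range of each neighbour down to TDRKH overlapped the next. Within each library, however, PIWIL3 lay above both PIWIL1 and PLD6. PIWIL3 had 61.7, 146 and 35.9 TPM, PIWIL1 33.3, 93.2 and 16.2 TPM, PLD6 36.1, 44.5 and 14 TPM and MAEL 6.73, 53.1 and 4.20 TPM in the libraries 1, 2 and 3, and all 4 genes were highest in 8-cell FLI 2. DMEM embryos had the same first 6 genes at the 2-cell stage and the same first 5 at the 4-cell stage.

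No member passed the test between the maturation media. HENMT1 averaged 356 ± 38.2 CPM in 2-cell FLI against 349 ± 23.8 CPM in 2-cell DMEM embryos, 1606 ± 30.7 against 1462 ± 156 CPM at the 4-cell stage and 1453 ± 268 against 1304 ± 170 CPM at the 8-cell stage (SD, n = 3). The log2 fold change of FLI against DMEM was 0.03 (95% interval -0.34 to 0.40) in 2-cell, 0.14 (-0.23 to 0.50) in 4-cell and 0.16 (-0.21 to 0.52) in 8-cell embryos, and 0.11 (-0.10 to 0.31) over the 3 stages. A difference of 1.5-fold is 0.585 on this scale and lies outside these intervals, which are those with all libraries. They rest on a spread shared by all groups, whereas the 8-cell libraries spread more widely. The 8-cell interval may thus be too narrow, and a 1.5-fold difference at that stage is not excluded. The 4-cell levels that chose HENMT1 also enter the 4-cell interval and the one over the 3 stages. Without the 3 libraries that stand apart, and with 8-cell FLI 1 alone in its group, the 8-cell value was 0.32.

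None of the 8 members tested passed in any of the 3 comparisons of FLI with DMEM, nor over the 3 stages together. In the 2 tests of whether a step between stages differed between media none of the 7 members other than HENMT1 passed. Over all genes edgeR called 0.0% in each of these comparisons. An unadjusted p under 0.05 was found for 2.15% of all genes in 2-cell, 2.31% in 4-cell and 7.85% in 8-cell embryos, 4.55% over the stages, and 2.56% and 3.07% for the steps to the 4-cell and to the 8-cell stage. DESeq2 called 1 gene in 2-cell, 0 in 4-cell and 29 in 8-cell embryos, 11 over the 3 stages and 0 for either step, none of them a member, and limma voom called 0 in each. Among the members 1 had an unadjusted p under 0.05, TDRKH in 8-cell embryos, where the 3 FLI libraries (18.4, 19.1 and 14.7 CPM) lay below the 3 DMEM libraries (20.8, 29.2 and 30.0 CPM). The difference was -0.62 on the log2 scale (SE 0.29, unadjusted p = 0.0437, adjusted p = 0.616).

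The groups also did not overlap for PIWIL1 in 2-cell embryos (log2 fold change -0.19, adjusted p = 1.0) and for MAEL in 4-cell embryos (log2 fold change -0.43, adjusted p = 1.0), both lower in FLI. That is 1 of 8 members at each stage, where 12%, 9.82% and 8.88% of all genes did not overlap in 2-, 4- and 8-cell embryos. The intervals of most members were wide. For MAEL in 8-cell embryos the log2 fold change was 1.29 (95% interval -0.03 to 2.60), and it was -0.54 without 8-cell FLI 2 and 0.17 without the 3 libraries that stand apart. For PLD6 at that stage it was -0.78 (-1.67 to 0.10), with -1.01 without 8-cell FLI 2 and -0.20 without the 3 libraries that stand apart. The data therefore do not show that these genes were alike in both media.

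**Figure D4:**
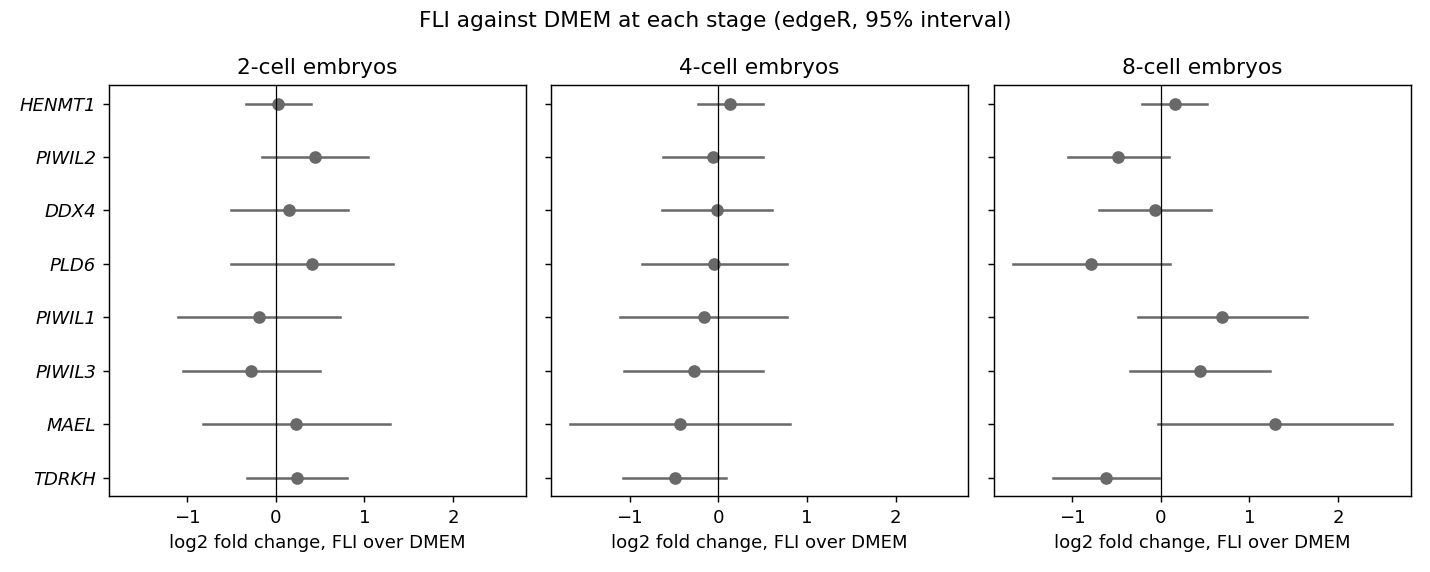
Log2 fold change of FLI against DMEM embryos (TMM, edgeR) with 95% intervals for the 8 members tested, in 2-cell, 4-cell and 8-cell embryos. All intervals but that of TDRKH in 8-cell embryos (-1.22 to -0.02) include 0, and those of HENMT1 are the narrowest at each stage.

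Other genes of the pathway, from a list of 20 of which 17 were in the table and 16 could be tested, mostly fell with MAEL, PIWIL1 and PIWIL3. In 4-cell against 2-cell embryos 10 were lower and 3 higher in FLI and 11 lower and 3 higher in DMEM, and the list had a median of -1.24 in FLI and -1.20 in DMEM on the log2 scale. Of all genes 27.2% were lower and 34.6% higher in FLI, and 28.4% lower and 35.2% higher in DMEM. EXD1, an RNA-binding partner of the Tudor protein TDRD12, averaged 3.39 ± 1.32 CPM in 4-cell FLI against 32.8 ± 2.50 CPM in 2-cell FLI embryos (log2 fold change -3.27, SE 0.50, adjusted p = 2.23e-05). TDRD7, a Tudor protein of germ granules, averaged 14.1 ± 3.43 against 98.9 ± 3.98 CPM (log2 fold change -2.81, SE 0.48, adjusted p = 6.32e-05), and MYBL1, a transcription factor that drives piRNA precursors in the mouse testis, averaged 87.9 ± 8.43 against 218 ± 11.8 CPM (log2 fold change -1.31, SE 0.20, adjusted p = 1.85e-05).

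The 3 genes that rose in both media were ASZ1, PRMT5 and WDR77, the last 2 named after their values were seen. ASZ1, a mitochondrial scaffold of the pathway, averaged 39.6 ± 11 CPM in 4-cell FLI against 6.94 ± 1.27 CPM in 2-cell FLI embryos, and 41.4 ± 12 CPM in 4-cell DMEM against 7.31 ± 3.52 CPM in 2-cell DMEM embryos. The rise was 2.52 on the log2 scale in FLI (SE 0.44, adjusted p = 8.51e-05) and 2.51 in DMEM (SE 0.44, adjusted p = 7.86e-05). WDR77 and PRMT5 form the complex that methylates arginines, also those of PIWI proteins, and act widely outside germ cells. WDR77 had 62.0 ± 10.7 CPM in 4-cell against 18.9 ± 1.88 CPM in 2-cell DMEM embryos (log2 fold change 1.71, SE 0.31, adjusted p = 0.000119), and PRMT5 rose by 1.01 in FLI (SE 0.24, adjusted p = 0.00133) and by 0.79 in DMEM (SE 0.24, adjusted p = 0.00714).

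At the 8-cell stage 9 of the 16 were lower and 3 higher than in 2-cell FLI embryos, and 12 lower and 3 higher than in 2-cell DMEM embryos. Of all genes 24.0% were lower and 34.6% higher in FLI, and 29.0% lower and 35.9% higher in DMEM. The genes of the list that were higher were again ASZ1, PRMT5 and WDR77. TDRD1, a Tudor protein that binds PIWIL2 in the mouse, fell by 2.18 on the log2 scale in FLI (SE 0.39, adjusted p = 0.000159) and by 2.86 in DMEM (SE 0.42, adjusted p = 1.29e-05). No gene of the list passed between the 4-cell and 8-cell stages or between media.

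Genes of the related microRNA pathway, whose Argonaute proteins are relatives of the PIWI proteins, were followed for comparison. Of 8 tested from a list of 10, 1 was higher and 4 lower in 4-cell than in 2-cell FLI embryos and 1 higher and 5 lower in DMEM, with a median of -0.68 in FLI and of -0.72 in DMEM on the log2 scale. Of all genes 27.2% were lower and 34.6% higher in FLI and 28.4% lower and 35.2% higher in DMEM, and their medians were 0.18 and 0.16. AGO2 averaged 268 ± 10.8 CPM in 4-cell FLI against 349 ± 28.1 CPM in 2-cell FLI embryos and did not pass (log2 fold change -0.38, SE 0.27, adjusted p = 0.218). AGO3 fell by 0.63 on the log2 scale in FLI (SE 0.21, adjusted p = 0.0124), and its value in DMEM was -0.02 (SE 0.20, adjusted p = 0.941). This does not show a difference between media, since none of the 8 genes passed the test of whether this step differed between them. MOV10, the helicase closest to MOV10L1, was lower in 4-cell than in 2-cell embryos, with 3.80 ± 1.25 against 12.3 ± 1.45 CPM in FLI (log2 fold change -1.70, SE 0.47, adjusted p = 0.00492) and 3.29 ± 2.17 against 14.1 ± 1.79 CPM in DMEM (log2 fold change -2.09, SE 0.48, adjusted p = 0.00106). AGO1 and AGO4 were not analysed here.

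The course of HENMT1 over the 18 libraries was shared by many genes. Its log2 CPM correlated best with SRSF3, a splicing factor (Pearson's r = 0.993), POLR2B, a subunit of RNA polymerase II (0.992), CPSF7, a factor of transcript cleavage (0.991), C1D, a cofactor of the RNA exosome (0.991), and SNAI1, a transcription factor (0.991). In all, 2254 of 13186 genes were above 0.9, and the points of each correlation share the libraries and the step between the 2-cell and 4-cell stages. By Spearman's rank correlation 25 genes were above 0.9, and none of the 5 first by Pearson's was among the 5 first by Spearman's, which were BZW1, CAB39, SENP7, MOB1A and MYNN. POLR2B had 531 ± 11 CPM in 4-cell FLI against 2.44 ± 1.38 CPM in 2-cell FLI embryos, so that genes of very different fold share this course. Within the members DDX4 had the highest Pearson correlation with HENMT1 (0.907) and MAEL the lowest (-0.922), whereas by Spearman's PLD6 was highest (0.711) and TDRKH lowest (-0.649). PIWIL1 and PIWIL3 had a Pearson correlation of 0.986 with each other.

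Of 7 markers of embryonic genome activation, among them KLF4, MYCN and KDM5B, NCL was the most abundant in every group. It averaged 1173 CPM in 2-cell FLI and 6390 CPM in 4-cell FLI embryos. Summed, the 7 genes rose after the 2-cell stage, as HENMT1 did. The sum was 1382 to 1775 CPM at the 2-cell stage, 11307 to 13579 CPM at the 4-cell stage and 7141 to 12098 CPM at the 8-cell stage. The lowest of the 8-cell values was that of 8-cell FLI 2, the library with the most maternal transcripts and the highest PIWIL1, PIWIL3 and MAEL of its stage.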

How the data were processed

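Total RNA of pools of porcine embryos was made into libraries with the SMARTer stranded total RNA Pico kit and sequenced on a NovaSeq. The authors mapped reads with bowtie2, took expression values from Illumina Dragen and compared genes with DESeq2. The submitters name the build Sscrofa11.1, and the sources used here give neither tool versions nor the handling of strand and of reads with several matches. The deposited count of each gene and library was used for all tests and CPM. The deposited TPM were used to compare genes, and the RPKM deposited by the authors were used to infer mapped reads per library. The 18 deposited columns of CPM were not used.

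For the tests, edgeR 4.0.16 was run in R 4.3.3. Its filterByExpr left 13187 of 20983 genes, which were scaled by TMM and fitted with glmQLFit as 6 group means over 18 libraries. The comparisons between stages and media were tested with glmQLFTest, and FLI against DMEM over the 3 stages with stage as a covariate. The threshold was 0.05 after Benjamini-Hochberg adjustment over all genes tested, and 95% intervals are from the t quantile of the fit. The procedure was also run on simulated counts in which few genes changed and all genes had the same spread. That run does not cover steps at which most genes change or groups whose libraries spread more widely. Alternatives were DESeq2 1.42.0, limma 3.58.1 with voom, other scalings, no filter, no mitochondrial genes, only the groups compared, a replicate block and leaving out libraries. The labels gave the stage and medium of each library. Named are all members, up to 4 other pathway genes with the smallest p in a comparison, AGO1 to AGO4 and MOV10, the 5 genes most correlated with HENMT1, and genes needed to explain a count. The members and all lists were chosen with earlier results of these data known. Counting error alone is covered by the floors of 3 counts.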

Additional observations from a re-analysis of the deposited data

How the results depend on the processing

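The number of members called between the 2-cell and 4-cell stages, between the 2-cell and 8-cell stages in DMEM, and between media was the same under every alternative run. In 8-cell against 2-cell FLI embryos 7 were called, and 5 with only the groups compared. In 8-cell against 4-cell FLI embryos 1 member (PLD6) was called. With upper quartile scaling, with scaling by library size only, without the filter on low counts and with only the groups compared 0 were called. Leaving out 8-cell FLI 2 and 3, or all 3 libraries that stand apart, was chosen after seeing the data. Both leave 1 library in 8-cell FLI, so no count is given for them at this step. Leaving out 1 library at a time gave 0 to 2 members, the 2 being PLD6 and PIWIL2 without 8-cell FLI replicate 2. In 8-cell against 4-cell DMEM embryos 0 members were called, and 4 with the 3 libraries left out. Whether the replicate numbers pair the pools is not known. Deviations from the group mean correlated from -0.276 to 0.444 for libraries with the same number and from -0.484 to 0.529 for those with different numbers. With 3 libraries in a group such deviations depend on each other, so these values cannot decide it. With the number as a replicate block, 0 members were called in 8-cell against 4-cell FLI embryos, and the other counts of members kept their value. Over all genes, edgeR called 106 higher and 296 lower in 8-cell than in 4-cell FLI embryos, and 485 and 704 were called by DESeq2, 101 and 602 by limma voom, 163 and 125 with library size only, 205 and 113 with upper quartile scaling, 31 and 149 with the block, 51 and 87 without the filter and 0 with only the groups compared. In DMEM 0 became 444 by DESeq2, 22 by limma voom and 1984 with the 3 libraries left out. The cause was not tested. Shares of summed TPM were the same from RPKM. This had to be so, since within a library both units differ only by a constant factor, and it is no check. Genes of under about 10 CPM, such as MAEL and PLD6 in some 8-cell libraries, rest on as few as 6 and 9 counts in a library.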
